A study of Mus musculus with 6 samples.

Results

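The counts of 9 genes used as markers of neural progenitors and their progeny (Sox2, Nes, Egfr, Mki67, Top2a, Dlx2, Sox11, Dcx and Olig2) were examined in small RNA libraries of extracellular vesicles (EVs). They were chosen by name as the RefSeq gene rows carrying these symbols, 9 of the 20714 gene rows in the count table, and each was set against the antisense row of the same genomic span, which counts reads from the opposite strand and served as background. EVs are membrane-bound particles that cells release with RNA and protein inside. The libraries came from EVs of cultured cortical astrocytes (3 libraries) and of neural stem cells (NSCs) from the neonatal subventricular zone (3 libraries). Both were grown from CD1 mice, and the sources used here name no transgene or treatment for either. The astrocytes were taken from the dorsal cortex of pups at postnatal day 4, shaken to remove microglia and oligodendrocytes, and passaged before their medium was collected and the P100 pellet taken by ultracentrifugation, while for the NSCs the sources used here give no culture protocol. The labels do not say that the libraries of a group came from separate cultures, so the p-values measure the spread between these libraries, which may be technical.

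In the postnatal subventricular zone, slowly dividing stem cells with astrocyte features give rise to fast-dividing intermediate progenitors, which make neuroblasts that migrate towards the olfactory bulb. The transcription factor Sox2 and the intermediate filament Nestin (Nes) are found in the stem cells, the receptor Egfr marks stem cells that have been activated and their dividing progeny, and Mki67 and Top2a are made in cycling cells. Dlx2 and Sox11 are transcription factors of the intermediate progenitors and newborn neurons, Dcx binds microtubules in migrating neuroblasts, and Olig2 directs the oligodendrocyte lineage. A small RNA library captures short RNAs, so a read over such a gene is a short fragment and does not show that the mRNA was present whole.

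The libraries held 85.6, 72.1 and 111.3 × 1e6 counts in astrocyte EVs and 47.8, 44.2 and 50.6 × 1e6 in NSC EVs, outside miRNA hairpin rows. Gene rows of both strands together took between 21.1% and 37.6% of an astrocyte EV library and between 39.9% and 52.6% of an NSC EV library. For tRNA rows the shares were 37.0% to 51.3% in astrocyte EV libraries and 21.6% to 34.1% in NSC EV libraries. Levels are given as CPM (counts per 1e6), with library sizes scaled by TMM, a factor from edgeR that centres the libraries on most of their rows. Astrocyte EV replicate 3 stood apart, with the highest sense CPM summed over the 9 genes, and results that rest on it are given with and without it.

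The 9 genes were a very small part of these libraries. Their sense rows together held 535, 720 and 2627 counts in astrocyte EVs and 784, 790 and 759 counts in NSC EVs. Their antisense rows held 599, 927 and 1754 counts in astrocyte EVs and 782, 1092 and 899 counts in NSC EVs. The sense strand therefore had 47.2%, 43.7% and 60.0% of the counts over these spans in astrocyte EVs and 50.1%, 42.0% and 45.8% in NSC EVs. Pooled over the 9 genes, the antisense background was thus as deep as the sense signal in most libraries. This pooled share leaned on Egfr and does not describe each gene. The antisense row of Egfr alone held 194, 370 and 575 counts in astrocyte EVs and 372, 655 and 546 in NSC EVs. Its sense row held 176, 207 and 970 counts in astrocyte EVs and 208, 301 and 234 in NSC EVs. Over all genes, the sense share was 48.7%, 52.5% and 55.5% in astrocyte EVs and 54.2%, 52.1% and 53.8% in NSC EVs. Sense CPM summed over the 9 genes was 12.8, 11.5 and 18.6 in astrocyte EVs and 13.7, 12.5 and 13.7 in NSC EVs, and the groups overlapped. Antisense CPM summed over them was 14.3, 14.8 and 12.4 in astrocyte EVs and 13.7, 17.3 and 16.3 in NSC EVs.

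The rows counted the whole gene span, introns included, by strand. For 115 small RNAs of at least 2000 counts that lie within a gene on its own strand, the gene's sense row reached the small RNA's count in 115 cases and the antisense row in 18. For 79 such small RNAs on the opposite strand, the antisense row reached the count in 79 cases and the sense row in 21. Counts rose with the length of the span on both strands (Pearson r = 0.8 for log2 span against log2 sense count and 0.8 against log2 antisense count, a description across 17623 genes that share the 6 libraries and are not independent replicates). For this reason, and because sense passed the test above antisense for only 1 of the 9 genes, the values are called sense and antisense counts, not mRNA. Not passing that test does not show that the strands were equally deep.

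Sense counts exceeded antisense counts past the test for Sox11 alone. The test was edgeR's quasi-likelihood test on both strands of every gene, with the library as a block and Benjamini-Hochberg adjustment over 17623 genes. It called sense above antisense for 1 of the 9 genes, against 32.2% of all genes, and sense below antisense for 0 of 9, against 18.7%. At an unadjusted p under 0.05 in either direction, 2 of the 9 passed, against 57.3% of all genes. These were Sox11, with sense above antisense, and Egfr, with sense below it. DESeq2 called 1, against 56.7%. Sense was above antisense in all 6 libraries for 2 of the 9 (Sox11 and Top2a), against 26% of all genes. The median log2 ratio of sense over antisense was 0.22 over the 9 genes and 0.28 over all genes tested.

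**Figure D1:**
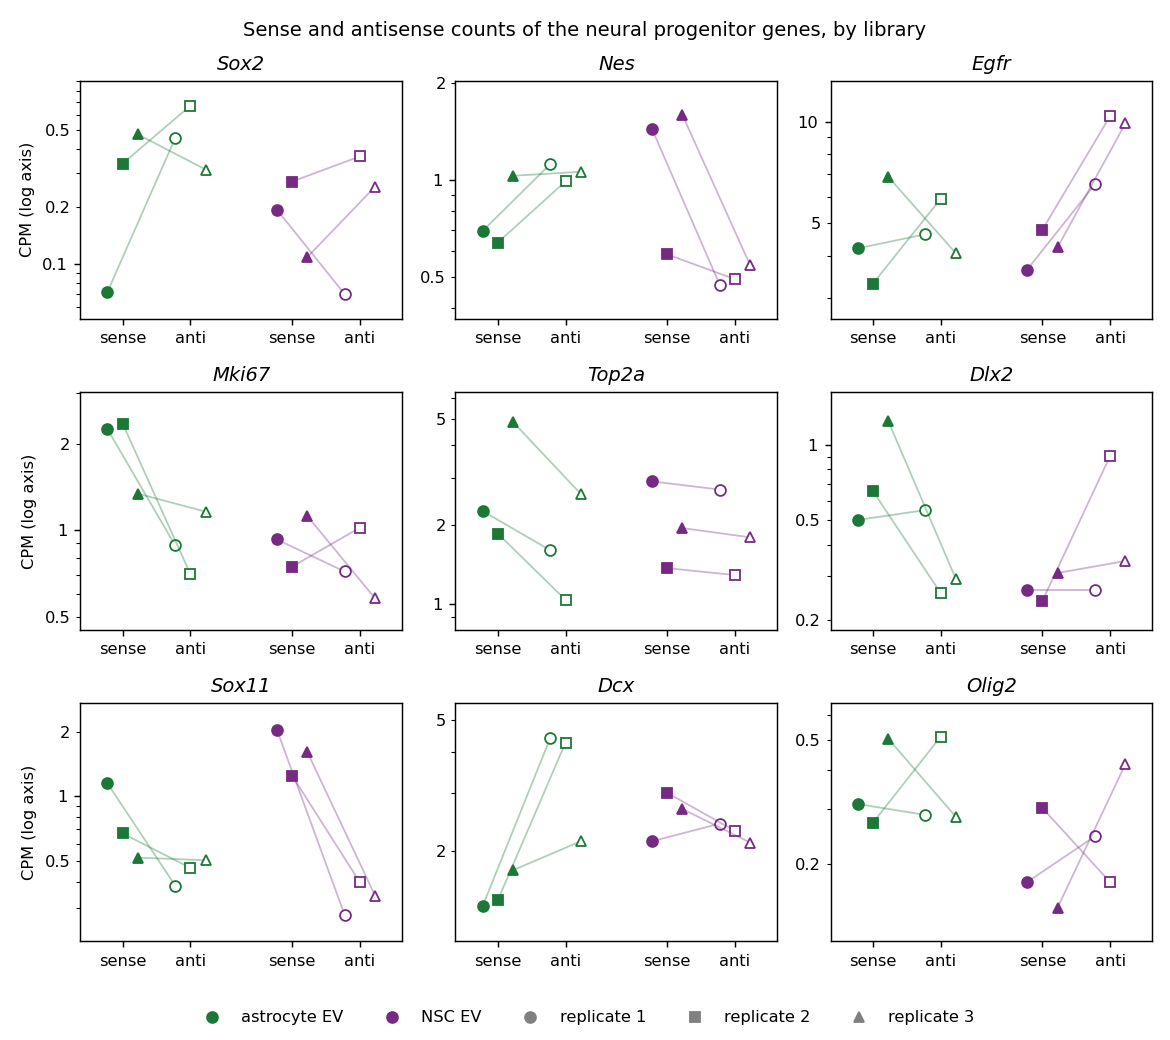
Sense (filled symbols) and antisense (open symbols) level of each gene in CPM on a log axis, with the 3 astrocyte EV libraries in green on the left and the 3 NSC EV libraries in purple on the right of each panel. A line joins both strands of 1 library and the symbol shape gives the replicate. For Sox11 and Top2a the filled symbol is the higher one in 6 of 6 libraries, and for Egfr it is the lower one in 5 of 6.

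Sox2 is a transcription factor that holds progenitors in the stem state. Its 2.46 kb row lies on the plus strand of chromosome 3 (mm10, 34650005 to 34652460), and 83.7% of it is exon. It had the fewest sense counts of the 9 genes, with 3, 21 and 67 sense counts in astrocyte EVs and 11, 17 and 6 in NSC EVs. Its antisense row had 19, 42 and 44 counts in astrocyte EVs and 4, 23 and 14 in NSC EVs, so that sense exceeded antisense in 2 of 6 libraries. The sense level averaged 0.294 ± 0.205 CPM in astrocyte EVs and 0.19 ± 0.0806 CPM in NSC EVs (SD, n = 3 each), and the groups overlapped. The fitted log2 difference between astrocyte and NSC EVs was 0.67 ± 0.68 (SE, edgeR adjusted p = 0.553), and 0.15 without astrocyte EV replicate 3. Sox2 lies within Sox2ot, a long noncoding RNA read from the same strand, whose sense row had 439, 751 and 1613 counts in astrocyte EVs and 614, 490 and 456 in NSC EVs. Sox2's own row equalled 0.683%, 2.8% and 4.15% of that in astrocyte EVs and 1.79%, 3.47% and 1.32% in NSC EVs, and reads of the 2 genes over their shared span cannot be told apart.

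Nes encodes Nestin, an intermediate filament protein of neural stem cells. Its 9.36 kb row is on the plus strand of chromosome 3 (87971093 to 87980451), with 68.4% of the span in exons. Sense counts were 29, 40 and 146 in astrocyte EVs and 82, 37 and 88 in NSC EVs. Antisense counts were 47, 62 and 150 in astrocyte EVs and 27, 31 and 30 in NSC EVs. The strands were ordered oppositely in the EV types, with sense below antisense in 3 of 3 astrocyte EV libraries and above it in 3 of 3 NSC EV libraries. The sense share was 38.2%, 39.2% and 49.3% in astrocyte EVs, with 95% Wilson intervals of 28.1 to 49.4%, 30.3 to 48.9% and 43.7 to 55.0%. In NSC EVs it was 75.2%, 54.4% and 74.6%, with intervals of 66.4 to 82.4%, 42.7 to 65.7% and 66.0 to 81.6%. These intervals cover counting error only, since PCR reads without molecular identifiers are not independent molecules. The log2 strand ratio differed by -1.59 ± 0.58 between astrocyte and NSC EVs (SE), which did not pass the test (edgeR adjusted p = 0.129). The sense level was 0.789 ± 0.214 CPM in astrocyte EVs and 1.21 ± 0.541 CPM in NSC EVs (SD, n = 3 each), a log2 difference of -0.6 ± 0.45 (SE, edgeR adjusted p = 0.42) with overlapping groups. On the antisense row the groups did not overlap, at 1.06 ± 0.0671 CPM in astrocyte EVs and 0.503 ± 0.0364 CPM in NSC EVs (SD, n = 3 each). That log2 difference was 1.07 ± 0.33 (SE, edgeR adjusted p = 0.0756), and DESeq2 called it with an adjusted p of 0.047. With TMM, the larger of the fitted differences between EV types at Nes was thus on the strand that does not encode Nestin. Without TMM the order turned, with log2 differences of -0.95 for sense and 0.57 for antisense. The antisense groups then overlapped.

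Egfr, the epidermal growth factor receptor, had the longest span and the most counts. Its row covers 161.71 kb on the plus strand of chromosome 11 (16752203 to 16913907), of which 4.4% is exon. Sense counts were 176, 207 and 970 in astrocyte EVs and 208, 301 and 234 in NSC EVs. Antisense counts were 194, 370 and 575 in astrocyte EVs and 372, 655 and 546 in NSC EVs. Sense was below antisense in every library but astrocyte EV replicate 3, where it was well above. The log2 ratio of sense over antisense was -0.57 ± 0.25 (SE, edgeR adjusted p = 0.087), and without astrocyte EV replicate 3 it passed the test at -0.78 (adjusted p = 0.0192). It did not pass without any other library (edgeR adjusted p = 0.114 to 0.291). Sense CPM averaged 4.8 ± 1.85 CPM in astrocyte EVs and 4.22 ± 0.568 CPM in NSC EVs (SD, n = 3 each), with a log2 difference of 0.19 ± 0.36 (SE, edgeR adjusted p = 0.769). Without astrocyte EV replicate 3 that difference was -0.16. The antisense row was at 4.87 ± 0.939 CPM in astrocyte EVs and 8.93 ± 2.11 CPM in NSC EVs (SD, n = 3 each) and did not overlap between them, with a log2 difference of -0.87 ± 0.32 (SE, edgeR adjusted p = 0.119). The annotation places an antisense transcript, Egfros, in this span on the minus strand, so antisense counts of Egfr include any reads of that gene.

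**Figure D2:**
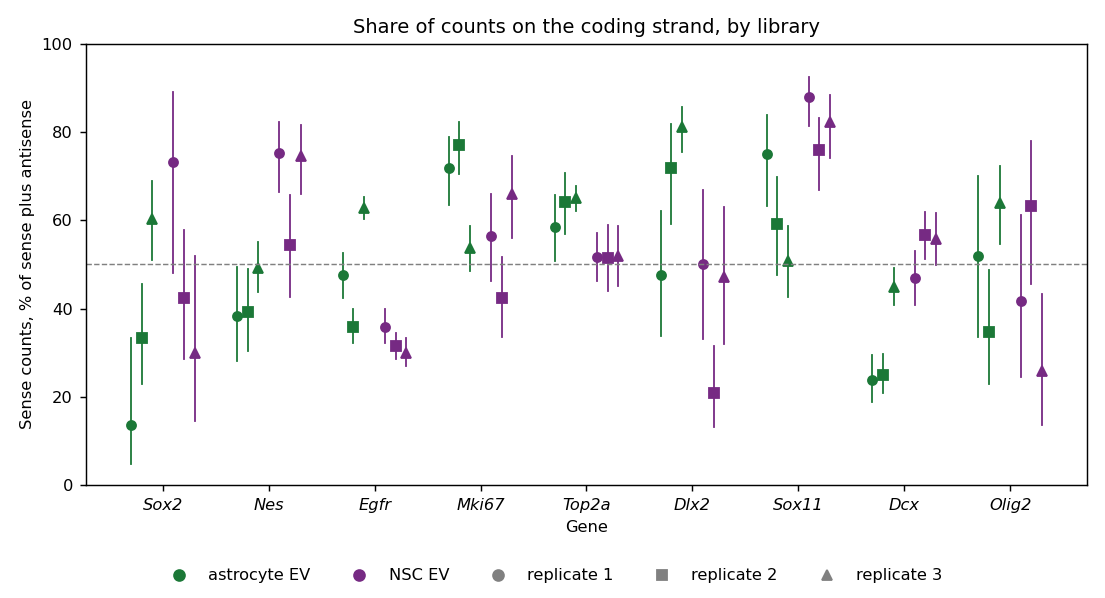
Sense counts as a percentage of sense plus antisense counts for each gene and library, with astrocyte EVs (green) left of NSC EVs (purple), bars giving the 95% Wilson interval and the dashed line 50%. All 3 NSC EV libraries lie above 50% for Nes, Sox11 and Top2a and below it for Egfr, and all 3 astrocyte EV libraries lie below it for Nes and Dcx.

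Mki67 and Top2a are made in dividing cells. Mki67, the Ki-67 protein that coats mitotic chromosomes, has a 26.59 kb row on the minus strand of chromosome 7 (135689788 to 135716379), of which 37.8% is exon. Its sense counts were 94, 147 and 189 in astrocyte EVs and 53, 47 and 62 in NSC EVs, and its antisense counts were 37, 44 and 163 in astrocyte EVs and 41, 64 and 32 in NSC EVs. Every astrocyte EV library had a higher TMM-scaled sense CPM than every NSC EV library, at 1.98 ± 0.556 CPM in astrocyte EVs and 0.932 ± 0.188 CPM in NSC EVs (SD, n = 3 each). The log2 difference was 1.08 ± 0.36 (SE, edgeR adjusted p = 0.0936), and 1.31 with an adjusted p of 0.0452 without astrocyte EV replicate 3. Leaving out any other library gave an edgeR adjusted p of 0.158 to 0.245. Without astrocyte EV replicate 1 or without replicate 2, 0 rows of the whole table were called, so those fits cannot decide the call of Mki67. The separation of the EV types rested on TMM, whose factor was lowest, at 0.488, in astrocyte EV replicate 1. Without TMM the sense level of that library lay within the NSC EV range. The log2 difference was then 0.51 (edgeR adjusted p = 0.627). Sense exceeded antisense in 5 of 6 libraries, by 0.69 ± 0.31 on the log2 scale (SE, edgeR adjusted p = 0.0971), and without astrocyte EV replicate 3 this passed the test at 0.91 (adjusted p = 0.0343). It did not pass without any other library (edgeR adjusted p = 0.0623 to 0.268). The antisense row differed by 0.25 ± 0.38 (SE, edgeR adjusted p = 0.709). An unclassified gene model, Gm45240, lies on the opposite strand within Mki67.

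Top2a encodes the topoisomerase that unlinks replicated chromosomes. Its 31.24 kb row is on the minus strand of chromosome 11 (98992947 to 99024189), of which 28.8% is exon, and it is the gene among the 9 that holds small RNA rows. Both are H/ACA box snoRNA copies, a class that guides the conversion of uridine to pseudouridine in other RNAs and ends in an ACA box close to the 3′ end. They are shown because reads over them fall into the rows of Top2a. In the GENCODE transcripts of the same assembly they read as follows, in lower case with the ACA box in capitals.
SNORA32 copy Gm23451, chr11:99017031-99017152, minus strand: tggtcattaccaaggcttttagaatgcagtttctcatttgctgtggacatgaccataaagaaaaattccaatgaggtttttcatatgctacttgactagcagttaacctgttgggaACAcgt
SNORA42 copy Gm26394, chr11:98999508-98999622, plus strand: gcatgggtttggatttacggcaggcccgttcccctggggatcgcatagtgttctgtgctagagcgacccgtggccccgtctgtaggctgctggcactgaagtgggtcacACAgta
In both copies 3 bases follow the ACA box. The SNORA32 copy lies on Top2a's own strand and had 4, 0 and 0 counts in astrocyte EVs and 8, 4 and 0 in NSC EVs. The SNORA42 copy lies on the opposite strand and had 0, 0 and 7 counts in astrocyte EVs and 5, 3 and 9 in NSC EVs. These are small beside the counts of Top2a, and no test of Top2a changed its call when they were subtracted.

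Top2a had 94, 116 and 687 sense counts in astrocyte EVs and 166, 86 and 107 in NSC EVs. Its antisense row had 67, 65 and 368 counts in astrocyte EVs and 155, 81 and 99 in NSC EVs. Both strands were high in astrocyte EV replicate 3, and sense exceeded antisense in 6 of 6 libraries, more narrowly in the NSC EV libraries than in the astrocyte EV libraries. The strand difference was 0.42 ± 0.21 on the log2 scale (SE, edgeR adjusted p = 0.121). Between astrocyte and NSC EVs the log2 strand ratio differed by 0.65 ± 0.42 (SE), which did not pass the test (edgeR adjusted p = 0.366). Sense CPM averaged 2.99 ± 1.64 CPM in astrocyte EVs and 2.07 ± 0.779 CPM in NSC EVs (SD, n = 3 each), with overlapping groups and a log2 difference of 0.54 ± 0.47 (SE, edgeR adjusted p = 0.483). Without astrocyte EV replicate 3 the difference was -0.004.

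Dlx2 and Sox11 are transcription factors of the neuronal lineage, and neither sense row passed the test between EV types. Dlx2, a homeobox factor of interneuron progenitors, has a 3.35 kb row on the minus strand of chromosome 2 (71543408 to 71546754), of which 85.3% is exon. Its sense counts were 21, 41 and 177 in astrocyte EVs and 15, 15 and 17 in NSC EVs, and its antisense counts were 23, 16 and 41 in astrocyte EVs and 15, 57 and 19 in NSC EVs. The sense level was 0.804 ± 0.398 CPM in astrocyte EVs and 0.27 ± 0.0354 CPM in NSC EVs (SD, n = 3 each) without overlap. The log2 difference was 1.59 ± 0.47 (SE, edgeR adjusted p = 0.0662). Over the alternatives the adjusted p ran from 0.0243 to 0.275, and the lowest was the call that DESeq2 made (1.6). The highest was edgeR's without TMM, with a log2 difference of 1.28. Without TMM the groups overlapped, with astrocyte EV replicate 1 below every NSC EV library. Without astrocyte EV replicate 3 edgeR gave a log2 difference of 1.11 with an adjusted p of 0.139. The antisense row, which was high in NSC EV replicate 2, had a log2 difference of -0.5 ± 0.59 (SE, edgeR adjusted p = 0.614), and of 0.25 without that library. Over both EV types the log2 ratio of sense over antisense of Dlx2 was 0.22 ± 0.42 (SE, edgeR adjusted p = 0.689), which turned to -0.06 without astrocyte EV replicate 3.

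Sox11, a SoxC factor of newborn neurons, has an 8.45 kb row on the minus strand of chromosome 12 (27334268 to 27342718), of which 98.3% is exon in a single block. Its sense counts were 48, 42 and 73 in astrocyte EVs and 117, 79 and 89 in NSC EVs. Its antisense counts were 16, 29 and 71 in astrocyte EVs and 16, 25 and 19 in NSC EVs. Sense exceeded antisense in 6 of 6 libraries, by 1.46 ± 0.32 on the log2 scale (SE, edgeR adjusted p = 0.0049), and the adjusted p ran from 0.00483 to 0.0201 when each library was left out in turn. The sense share was 75.0%, 59.2% and 50.7% in astrocyte EVs, with 95% Wilson intervals of 63.2 to 84.0%, 47.5 to 69.8% and 42.6 to 58.7%. In NSC EVs it was 88.0%, 76.0% and 82.4%, with intervals of 81.4 to 92.5%, 66.9 to 83.2% and 74.2 to 88.4%. The share was thus higher in every NSC EV library than in any astrocyte EV library, and in astrocyte EV replicate 3 the strands were nearly equal. The sense level was 0.779 ± 0.329 CPM in astrocyte EVs and 1.64 ± 0.398 CPM in NSC EVs (SD, n = 3 each) without overlap. The log2 difference was -1.09 ± 0.41 (SE, edgeR adjusted p = 0.123), while the antisense row differed by 0.41 ± 0.4 (SE, adjusted p = 0.537). The difference in log2 strand ratio between astrocyte and NSC EVs was -1.56 ± 0.63 (SE, edgeR adjusted p = 0.163).

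Dcx, the doublecortin protein of migrating neuroblasts, has a 77.38 kb row on the minus strand of the X chromosome (143855842 to 143933219), of which 16.2% is exon. Sense counts were 57, 89 and 247 in astrocyte EVs and 122, 189 and 148 in NSC EVs. Antisense counts were 184, 267 and 302 in astrocyte EVs and 138, 145 and 117 in NSC EVs. In astrocyte EVs the antisense row was the deeper one in 3 of 3 libraries, while in NSC EVs the strands were close to equal. Dcx sense rows were at 1.51 ± 0.209 CPM in astrocyte EVs and 2.61 ± 0.437 CPM in NSC EVs (SD, n = 3 each) without overlap, a log2 difference of -0.78 ± 0.31 (SE, edgeR adjusted p = 0.137). The antisense row differed by 0.66 ± 0.36 (SE, edgeR adjusted p = 0.262), at 3.6 ± 1.27 CPM in astrocyte EVs and 2.28 ± 0.15 CPM in NSC EVs (SD, n = 3 each). The log2 strand ratio was -0.5 ± 0.26 over all libraries (SE, edgeR adjusted p = 0.142) and passed the test as sense below antisense without astrocyte EV replicate 3 (-0.73, adjusted p = 0.0261). It did not pass without any other library (edgeR adjusted p = 0.16 to 0.353). The log2 strand ratio differed by -1.36 ± 0.53 between astrocyte and NSC EVs (SE, edgeR adjusted p = 0.145).

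Olig2, a basic helix-loop-helix factor of the oligodendrocyte lineage, has a 3.13 kb row on the plus strand of chromosome 16 (91225550 to 91228677), of which 77.9% is exon. Sense counts were 13, 17 and 71 in astrocyte EVs and 10, 19 and 8 in NSC EVs. Antisense counts were 12, 32 and 40 in astrocyte EVs and 14, 11 and 23 in NSC EVs. The order of the strands varied from library to library, with sense the higher in 3 of 6. On the sense strand Olig2 was at 0.362 ± 0.124 CPM in astrocyte EVs and 0.207 ± 0.0832 CPM in NSC EVs (SD, n = 3 each), with overlapping groups. The log2 difference was 0.81 ± 0.51 (SE, edgeR adjusted p = 0.324), and 0.49 without astrocyte EV replicate 3. The log2 strand ratio was -0.18 (edgeR adjusted p = 0.752).

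Across the 9 genes, no difference between EV types passed the test. edgeR's quasi-likelihood test over 41308 rows called 0 of 9 sense rows, against 5.54% of all rows higher and 4.24% lower in astrocyte EVs, and against 9.41% of the sense rows of all genes in either direction. It called 0 of 9 antisense rows, against 8.4% of all antisense rows. At an unadjusted p under 0.05, 4 sense rows (Dlx2, Mki67, Sox11 and Dcx) passed, against 28.8% of all sense rows, and 2 antisense rows (Nes and Egfr), against 27.4% of all antisense rows. DESeq2 called 1 of 9 sense rows (Dlx2), against 18.5% of all sense rows, and 1 of 9 antisense rows (Nes), against 17.1%. The same 4 sense rows did not overlap between EV types in TMM-scaled CPM, 4 of 9 against 34% of all genes, with Dlx2 and Mki67 higher and Sox11 and Dcx lower in astrocyte EVs. Without TMM, Dlx2 and Mki67 overlapped, while Sox11 and Dcx stayed apart. On the antisense strand 2 of 9 did not overlap in TMM-scaled CPM, against 32.7%. Of these, Nes overlapped without TMM and Egfr did not. The median log2 difference over the 9 genes was 0.54 for sense rows and 0.37 for antisense rows, against 0.03 for all sense rows and -0.09 for all antisense rows. The sense median was the value of Top2a and rested on astrocyte EV replicate 3. Without that library Top2a was again the middle gene, at -0.004. All 18 rows passed the low-count filter.

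Nor did the strand ratio differ between EV types past the test. It was called for 0 of 9 genes by edgeR, against 6.43% of all genes, and for 0 by DESeq2, against 18%. At an unadjusted p under 0.05 were 3 of the 9 (Nes, Dcx and Sox11), against 25.8% of all genes, each with a lower sense share in astrocyte EVs. For Dlx2 the difference ran the other way, at 1.88 ± 0.85 (SE, edgeR adjusted p = 0.206), and for Egfr it was 0.99 ± 0.5 (SE, adjusted p = 0.248). Strands were in opposite order in all libraries of the EV types for 1 of 9 genes, Nes, against 5.75% of all genes.

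**Figure D3:**
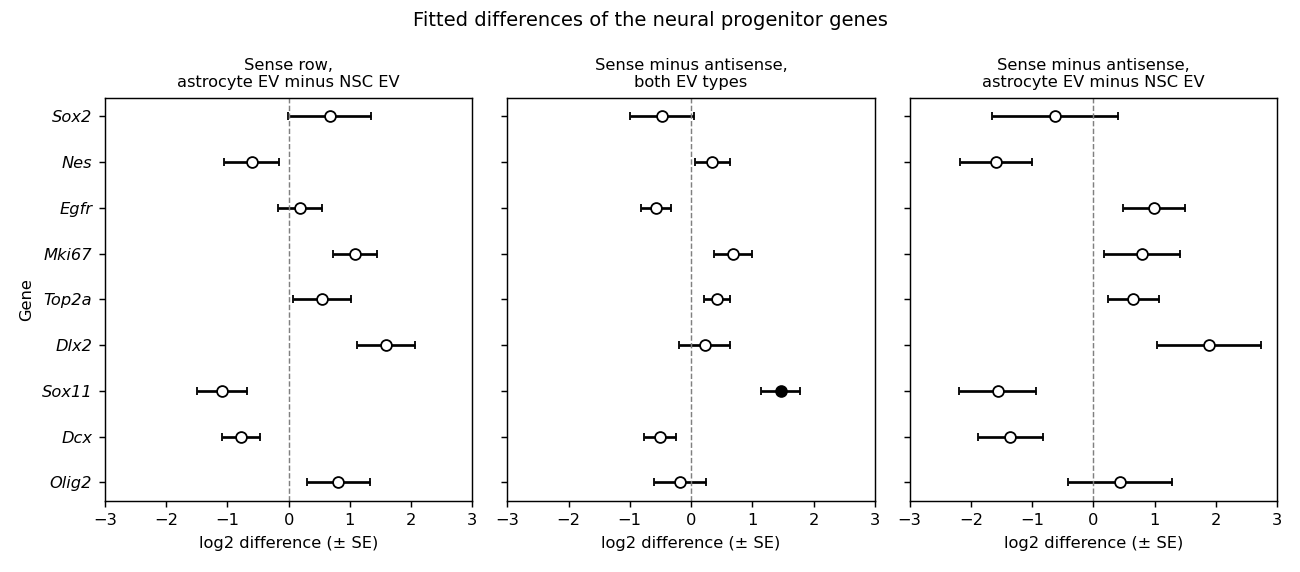
Log2 differences with their standard errors from edgeR's quasi-likelihood fits, for the sense row between astrocyte and NSC EVs (left), for sense against antisense over both EV types (middle) and for the strand ratio between astrocyte and NSC EVs (right). A filled symbol marks an adjusted p under 0.05, which Sox11 alone reached, in the middle panel at 1.46.

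Per length, the order of the genes was not that of their counts. In astrocyte EVs the sense level ran from 0.24 ± 0.119 CPM per kb of span for Dlx2 (SD, n = 3), through Sox2 (0.12), Olig2 (0.116), Top2a (0.0957), Sox11 (0.0921), Nes (0.0843) and Mki67 (0.0744), to Egfr (0.0297) and Dcx (0.0195 ± 0.0027). In NSC EVs it ran from 0.194 ± 0.0471 CPM per kb for Sox11 (SD, n = 3), through Nes (0.129), Dlx2 (0.0805), Sox2 (0.0775), Top2a (0.0663), Olig2 (0.0662), Mki67 (0.0351) and Dcx (0.0337), to Egfr (0.0261 ± 0.00351). Only Mki67 and Egfr in astrocyte EVs, and Olig2 and Mki67 in NSC EVs, were neighbours whose libraries did not overlap. The median over all gene rows was 0.07 CPM per kb in astrocyte EVs and 0.0666 in NSC EVs. Dlx2 stood above 88.2% of the gene rows in astrocyte EVs and 59.6% in NSC EVs, and Sox11 above 61.7% in astrocyte EVs and 86.3% in NSC EVs. The astrocyte EV libraries of Dlx2 were at 0.15, 0.196 and 0.375 CPM per kb, the highest being replicate 3. The order takes no account of the antisense background. Antisense CPM per kb averaged 0.109 for Dlx2 and 0.195 for Sox2 in astrocyte EVs, and 0.151 for Dlx2 and 0.0403 for Sox11 in NSC EVs. Egfr and Dcx, the genes with the most intron, stood above at most 17.8% of the gene rows in either EV type.

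**Figure D4:**
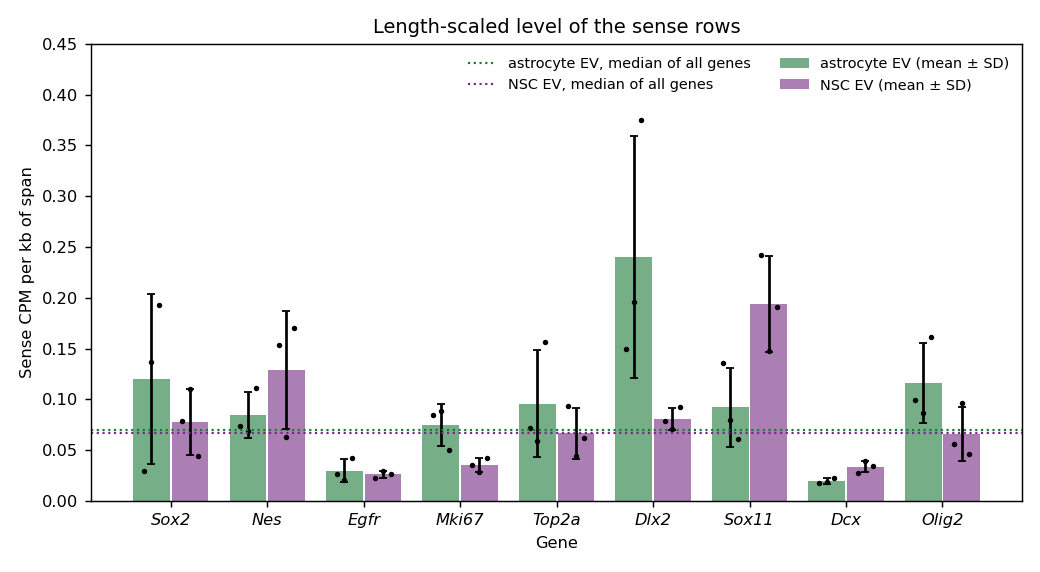
Sense level per kb of gene span in astrocyte EVs (green, left bar) and NSC EVs (purple, right bar), as mean ± SD with a point for each of 3 libraries, and dotted lines at the median of all gene rows (0.07 CPM per kb in astrocyte EVs and 0.0666 in NSC EVs). Dlx2 in astrocyte EVs and Sox11 in NSC EVs have the highest bars.

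The gene rows whose log2 CPM over the 6 libraries was most like the mean of the 9 genes were Hmgn3, Letm1 and Smc1a (Pearson r = 0.995 each), the closest of 16917 rows searched. With 6 points and so many rows, this is a description of these libraries.

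Other genes of the same programmes were read against the share of all sense rows called between EV types, 9.41% in either direction, and the shares of all genes with sense called above (32.2%) or below (18.7%) antisense. Among 16 tested genes of neural stem cells and progenitors, 1 was higher and 1 lower in astrocyte EVs. The higher one was Nr2e1, a nuclear receptor that keeps neural stem cells dividing, at 4.84 ± 1.92 CPM in astrocyte EVs and 1.25 ± 0.19 CPM in NSC EVs (SD, n = 3 each), with a log2 difference of 1.96 (edgeR adjusted p = 0.0239). The lower one was Fabp7, a fatty acid binding protein of radial glia, at 0.0742 ± 0.052 CPM in astrocyte EVs and 0.67 ± 0.32 CPM in NSC EVs (SD, n = 3 each), with a log2 difference of -3.09 (edgeR adjusted p = 0.0304). Fabp7 had 1, 8 and 10 sense counts in astrocyte EVs and 50, 19 and 46 in NSC EVs. The deepest rows of this list per kb were Sox3, Msi2 and Sox9, none of which was called. A tRNA-like row inside the span of Msi2 held a count equal to 34.1% of its sense count. The strand test put sense above antisense for 6 and below it for 2 of the 17 genes of this list it covered.

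Among 23 tested genes of the cell cycle, the list nearest to Mki67 and Top2a, 2 were higher and 0 lower in astrocyte EVs, against 9.41% of all sense rows in either direction. Foxm1, a transcription factor of mitotic genes, was at 4.77 ± 0.781 CPM in astrocyte EVs and 0.633 ± 0.0444 CPM in NSC EVs (SD, n = 3 each), a log2 difference of 2.91 (edgeR adjusted p = 0.0126). Bub1, a kinase of the spindle checkpoint, was at 4.79 ± 2.57 CPM in astrocyte EVs and 1.07 ± 0.0276 CPM in NSC EVs (SD, n = 3 each), a log2 difference of 2.16 (edgeR adjusted p = 0.0244). Summed over the list, sense CPM was 44.7 to 63.5 in astrocyte EV libraries and 29.2 to 32.3 in NSC EV libraries, without overlap, and the median log2 difference was 0.4. Other lists also had sums that did not overlap. The endothelial list summed higher in astrocyte EVs without overlap too, with a median of 0.56. That separation rested on Tek, its row with the most sense counts. Without Tek the endothelial sums overlapped, at 51.9 to 61.1 CPM in astrocyte EVs and 35.6 to 54.1 CPM in NSC EVs. Without Cenpe, its row with the most sense counts, the cell cycle list stayed apart, at 37.4 to 57.7 and 24.5 to 25.3 CPM. The mature neuron and the fibroblast and mural sums did not overlap in the other direction. Of all single sense rows, 34% did not overlap. The strand test put sense above antisense for 10 and below it for 4 of 23 genes, against 32.2% and 18.7% of all genes.

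Among 19 tested genes of neuroblasts and young neurons, the list nearest to Dlx2, Sox11 and Dcx, 2 were higher and 3 lower in astrocyte EVs, against 9.41% of all sense rows in either direction. The higher genes were Gad1 (2.27, edgeR adjusted p = 0.0239) and Gad2 (1.77, adjusted p = 0.0197), the enzymes that make GABA. The lower genes were Cd24a, a surface protein of neuroblasts (-2.39, edgeR adjusted p = 0.0179), Stmn1, which destabilizes microtubules (-2.15, adjusted p = 0.0414), and Elavl4, a neuronal RNA-binding protein (-2.04, adjusted p = 0.0271). Stmn2 and Dlx5 were among the deepest rows of this list per kb, and neither was called. The strand test put sense above antisense for 7 and below it for 4 of 19 genes, against 32.2% and 18.7% of all genes. In the list of oligodendrocyte precursors, nearest to Olig2, 0 of 6 tested genes were called, against 9.41% of all sense rows. The strand test put sense above antisense for 0 and below it for 5 of 8 genes of that list, against 32.2% and 18.7% of all genes.

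These list calls rested on few libraries. With a replicate block the calls of Nr2e1, Fabp7, Bub1, Gad1, Gad2, Stmn1 and Elavl4 were lost (edgeR adjusted p = 0.0545 to 0.0829). Foxm1 and Cd24a stayed called with the block (edgeR adjusted p = 0.0319 and 0.0447). Without astrocyte EV replicate 3, the calls of Fabp7, Stmn1 and Elavl4 were lost (edgeR adjusted p = 0.0668, 0.0854 and 0.0532), and Ccnd2, a cyclin of cycling progenitors, was called as higher in astrocyte EVs (1.84, adjusted p = 0.0217). Without astrocyte EV replicate 1 or without replicate 2, 0 of all rows in the table were called in either direction, and without NSC EV replicate 3, 4 rows were called as higher and 14 as lower.

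Sense counts over markers of the cells of origin and of other cell types were read in the same way, with the same limit that a sense count does not show an mRNA. No marker with a row in the table was at 0 in all libraries. Among 12 astrocyte markers 2 were higher in astrocyte EVs and 0 lower, against 9.41% of all sense rows in either direction. The 2 were Gfap, an intermediate filament of astrocytes (1.85, edgeR adjusted p = 0.0263), and Aldoc, a glycolytic enzyme abundant in them (1.32, adjusted p = 0.0448, and 0.061 without astrocyte EV replicate 3). With a replicate block neither was called (edgeR adjusted p = 0.072 and 0.092). The summed astrocyte list was at 31.1 to 37.6 CPM in astrocyte EVs and 33.0 to 55.1 CPM in NSC EVs. In the list of fibroblast and mural markers 1 of 9 was higher, Col1a2 (2.54, adjusted p = 0.0237), and 1 lower, Pdgfrb (-2.49, adjusted p = 0.037), and the list summed to 54.8 to 219 CPM in astrocyte EVs and 572 to 740 CPM in NSC EVs. Pdgfrb made up most of that sum, and without it the list was at 16.5 to 35.1 CPM in astrocyte EVs and 15.3 to 17.2 CPM in NSC EVs. Among mature neuron markers 1 of 10 was lower, Rbfox3 (-1.5, adjusted p = 0.0409, and 0.0771 without astrocyte EV replicate 3), with summed levels of 111 to 187 CPM in astrocyte EVs and 234 to 336 CPM in NSC EVs. Without Rbfox3 that list was at 54.0 to 105 CPM in astrocyte EVs and 61.8 to 95.6 CPM in NSC EVs. None was called of 7 mature oligodendrocyte, 11 microglia and macrophage, 7 endothelial and 3 red blood cell markers. The same 9.41% stands beside the counts of every list in this paragraph. The endothelial list summed to 91.7 to 115 CPM in astrocyte EVs and 64.5 to 68.6 CPM in NSC EVs, and these sums overlapped without Tek. The mature oligodendrocyte list summed to 15.5 to 31.0 CPM in astrocyte EVs and 15.8 to 32.1 CPM in NSC EVs. The red blood cell list summed to 1.34 to 3.04 CPM in astrocyte EVs and 1.87 to 3.18 CPM in NSC EVs. The part of these cell types in the levels of the 9 genes was not tested.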

How the data were processed

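Small RNA libraries of 3 astrocyte EV and 3 NSC EV samples were analyzed. The authors deposited whole-number counts for 61949 annotated rows without normalization. Among the tools in the submitters' processing notes are Bowtie and Bowtie2, bedtools, SAMtools, FastQC, cutadapt and DESeq, with mm10 as the build and no versions. The treatment of multiply mapping reads is not stated there. The deposited tables of the authors' own comparison (means, fold changes and p-values) were not used. 0 columns of per-sample values were unmapped.

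The 788 hairpin rows, which repeat mature miRNA reads, were left out. EV types were compared with edgeR 4.0.16 in R 4.3.3 (TMM, default filter, quasi-likelihood test, Benjamini-Hochberg, calls at an adjusted p under 0.05) on all rows with group as the only term, and strands as 12 columns with the library as a block and no TMM. TMM factors lay between 0.488 and 1.42. Common dispersions were 0.201 between EV types and 0.166 in the strand fit. Replicates differed by more than sampling noise (chi-square per degree of freedom 101 to 457). Tests were checked on simulated counts. Exon shares and snoRNA sequences came from GENCODE vM21. DESeq2 1.42.0, other size factors, filters, a replicate block, repeated rows taken once, subtracted small RNA rows and each library left out were alternatives. Tables were joined with pandas 2.3.3, numpy 2.4.6 and scipy 1.17.1 under Python 3.11.15, and plots drawn with matplotlib 3.10.9.

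The 9 genes and the 11 lists (neural stem and progenitor, proliferation, neuroblast and young neuron, oligodendrocyte precursor, astrocyte, mature neuron, mature oligodendrocyte, microglia and macrophage, fibroblast and mural, endothelial, red blood cell) were chosen with earlier results of these data known. From each list, named genes were the 3 deepest per kb and up to 3 called in each direction, with the 3 rows most correlated with the 9 genes. Ccnd2 falls outside this rule and was chosen after its values were seen. A pair of named list genes, and the summed level of the microglia and macrophage list, are not reported here.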

Additional observations from a re-analysis of the deposited data

Results flagged for a closer look

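The Nes strand ratio ran in opposite directions in the EV types, with sense counts below antisense counts in 3 of 3 astrocyte EV libraries and above them in 3 of 3 NSC EV libraries. The difference in log2 ratio was -1.59 between astrocyte and NSC EVs, and the test of that difference did not pass the adjustment (edgeR adjusted p = 0.129). Among all genes 5.75% had such an opposite order. Groups of 3 were not tested for outlying libraries.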

How the results depend on the processing

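The count of genes with a sense row called between EV types was 0 under all alternatives but DESeq2 (1) and the left-out libraries (0 to 1, with Mki67 called at 1.31 without astrocyte EV replicate 3). With a replicate block it was also 0, and over all rows the block gave 668 higher and 577 lower calls, against 2290 and 1750 without it. Same-numbered libraries did not deviate together (correlations of -0.05, 0 and -0.12), so the numbers were not taken to pair them. The block changed no call of the 9 genes between EV types, for the rows or for the strand ratio. Its effect on the call of Sox11 sense above antisense is not given here. Of the 14 list genes called between EV types, 3 were also called with the block (Foxm1, Cd24a and Col1a2). DESeq2 gave 4203 higher and 3687 lower rows. Sense above antisense was called for 1 to 2 genes when libraries were left out. The strand ratio differed between EV types for 0 genes under every alternative, the block and DESeq2 included. Without TMM the median log2 difference of all rows moved to -0.54, against -0.04 with it, the calls to 738 higher and 3217 lower, and these differences turned: Egfr sense -0.21, Mki67 antisense -0.22, Sox11 antisense -0.05 and Olig2 antisense -0.08. Scaling both strands by TMM, which centres the strand ratio of all genes, gave 4435 genes above and 4249 below, against 5669 and 3293, turned the strand ratio of Dlx2 to -0.04, kept Sox11 called at 1.2 (adjusted p = 0.0125), and called sense below antisense for Egfr (-0.83, adjusted p = 0.0214) and Dcx (-0.76, adjusted p = 0.0394). Leaving out libraries also turned the sense difference of Egfr (-0.16 to 0.38) and Top2a (-0.004 to 0.87), the antisense difference of Dlx2 (-0.89 to 0.25) and Top2a (-0.54 to 0.2), the strand ratio of Dlx2 (-0.06 to 0.54) and Olig2 (-0.48 to 0.1), and the difference in strand ratio of Olig2 (-0.13 to 1.04). Strand ratios called as different between EV types over all genes were 647 higher and 487 lower, 142 and 91 with the block, 1785 and 1381 by DESeq2, 0 and 1 without astrocyte EV replicate 1, and 0 and 0 without astrocyte EV replicate 2 or NSC EV replicate 3. The cause of these changes was not tested. Where counts were few, as for Sox2 (34 sense counts over the NSC EV libraries), depth limits what could be detected.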
